A study of Mus musculus with 7 samples.

Results

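Galactose at the end of a protein's sugar chains is read in liver by several families of lectins, and *B4galt1* encodes the enzyme that adds that galactose. The genes described here, 9 lectin genes and 1 gene for a lectin ligand, are 10 of the 23347 genes in the deposited liver table. They are *Asgr1* and *Asgr2*, the subunits of the hepatocyte asialoglycoprotein receptor, *Clec4f*, *Clec10a* and *Mgl2*, galactose- or N-acetylgalactosamine-binding receptors of macrophages and dendritic cells, the galectin genes *Lgals1*, *Lgals3*, *Lgals8* and *Lgals9*, and *Lgals3bp*, a secreted glycoprotein that galectins bind. They were picked by name, the lectins for their known binding to sugar chains that end in galactose and *Lgals3bp* as a ligand of galectins. RNA was sequenced from the livers of 4 *B4galt1* flox/flox mice, which the sample labels call WT, and of 3 mice labelled B4-HKO, here *B4galt1* hep-/-. In the latter an albumin-promoter Cre removes *B4galt1* from hepatocytes, so the other liver cells keep the gene. Every animal was a male C57BL/6 mouse with the floxed allele, 6 to 8 weeks old when the diet began, and ate CDAHFD, a high-fat diet deficient in choline that brings on steatohepatitis, for 15 weeks. Each library came from 1 mouse, and chow-fed mice were not analysed here.

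As background, β-1,4-galactosyltransferase 1 adds galactose to N-acetylglucosamine on N-glycans, and sialic acid usually caps that galactose in plasma glycoproteins. When the cap is lost, the exposed galactose is bound by the asialoglycoprotein receptor, a hetero-oligomer of the *Asgr1* and *Asgr2* products that takes aged glycoproteins and platelets into hepatocytes. Galectins are small soluble lectins that bind β-galactosides and cross-link glycoproteins inside and outside cells, and in fatty liver galectin-3 is best known as a product of activated macrophages.

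The labels were first checked with *B4galt1* itself. Its level was 48.7, 53.0, 49.2 and 51.7 CPM (counts scaled to a common library size by TMM) in the 4 control livers. The livers labelled hep-/- had 28.4, 23.9 and 53.7 CPM in replicates 1 to 3, so the third library of that group was as high as the controls. Between the groups *B4galt1* gave a log2 fold change of -0.52 ± 0.26 (SE), adjusted p = 0.181 (quasi-likelihood test of edgeR, Benjamini-Hochberg), and without hep-/- replicate 3 it gave -0.96, adjusted p = 0.0139. All directions below therefore refer to the livers labelled hep-/-, and values without that library are given where they alter a result. Total counts were 37838654 to 39668509 in flox/flox livers and 30608271 to 34586588 in hep-/- livers, and 3 counts corresponded to 0.0690 to 0.0987 CPM. Mitochondrially encoded genes took 3.88% to 8.0% of counts in flox/flox and 14.4% to 22.6% in hep-/- livers. The hepatocyte markers were the most abundant of all marker lists, with *Alb*, which encodes albumin, at 75050 ± 17490 CPM (SD, n = 4) in flox/flox and 91680 ± 21430 CPM (SD, n = 3) in hep-/- livers. These values go with the tissue label. Of the 8 hepatocyte markers 0 were called, 4 had a log2 fold change below 0, and the median was 0.05.

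Of the 10 genes, 9 passed edgeR's filter on low counts and were tested, *Mgl2* being too low. *Lgals3bp* and *Lgals9* fell in the hep-/- livers, and no member rose. The call required an adjusted p below 0.05 together with a log2 fold change beyond 0.58 in either direction. These 2 called members are 22.2% of the 9 tested, where 7.83% of the 15179 tested genes were called lower and 8% were called higher. Increases numbered 0 in edgeR's test and 0 in DESeq2, and 0 members had an unadjusted p under 0.05 in that direction, against 3 in the other. Of all tested genes, 16.8% had one in the higher and 16.1% in the lower direction. The log2 fold change was below 0 for 8 of the 9, with a median of -0.32 beside 0.02 over all tested genes. In CPM, 3 members (*Asgr2*, *Lgals3bp* and *Lgals9*) lay lower in each hep-/- liver than in each flox/flox liver, and 15% of tested genes did so. No member lay wholly above the flox/flox range, and 13.6% of tested genes did. In limma on log2(FPKM + 1), where libraries are scaled by the total count alone, the fit moved the median log2 fold change of all genes by -0.12 and made 24.5% of called genes higher rather than 50.5%.

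**Figure D1:**
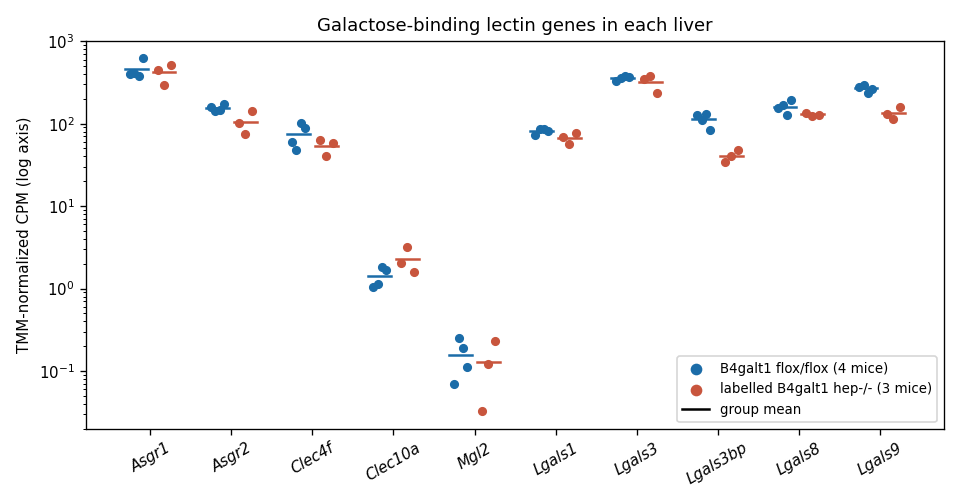
TMM-normalized CPM on a log axis of the 10 genes in each liver, with 1 point per mouse and a line at the group mean, blue for the 4 flox/flox mice and red for the 3 mice labelled hep-/-. The groups are apart for *Lgals3bp* and *Lgals9*, nearly touch for *Asgr2*, and overlap for the other genes.

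**Figure D2:**
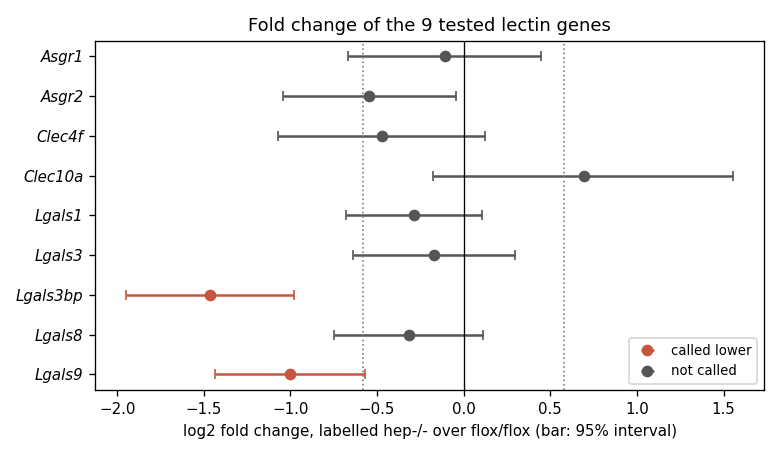
Log2 fold change of the 9 tested genes, hep-/- over flox/flox, with its 95% interval from the quasi-likelihood fit, and dotted lines at the thresholds of 0.58 in both directions. The intervals of *Lgals3bp*, *Lgals9* and *Asgr2* lie below 0, and *Asgr2* did not pass adjustment over all genes.

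The receptor of hepatocytes was considered first. *Asgr1* encodes its major subunit. It was at 405, 409, 382 and 622 CPM in flox/flox replicates 1 to 4 and at 453, 297 and 514 CPM in hep-/- replicates 1 to 3. The groups overlapped, the highest value being flox/flox replicate 4. The log2 fold change was -0.11 ± 0.26 (SE, 95% interval -0.67 to 0.45), adjusted p = 0.794 in edgeR, and without flox/flox replicate 4 it was 0.08, without hep-/- replicate 2 0.09 and without hep-/- replicate 3 -0.29, so no direction can be given. Relative to the mean log2 CPM of the 8 hepatocyte markers, *Asgr1* differed by -0.07 in hep-/- livers (p = 0.743, two-sided exact permutation test), and by 0.26 relative to their median. *Asgr2* encodes the minor subunit. Its values were 158, 142, 146 and 172 CPM in flox/flox livers and 101, 74.8 and 142 CPM in hep-/- livers. The hep-/- livers were all lower, but replicate 3, the library with *B4galt1* at the control level, almost met the lowest control (141.6 against 141.7 CPM). The log2 fold change of *Asgr2* was -0.55 ± 0.23 (SE, 95% interval -1.05 to -0.05), with an adjusted p of 0.120 in edgeR, and the two-sided exact permutation test on CPM gave p = 0.0286, the smallest that 4 against 3 mice allow. Without hep-/- replicate 3 *Asgr2* was called, at -0.82 and adjusted p = 0.0345 in edgeR, and limma called it on log2(FPKM + 1) with all mice, at -0.71. Without hep-/- replicate 2 it was -0.35, adjusted p = 0.318 in edgeR.

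The balance of the subunits can be read within a library, where normalization cancels. The ratio of *Asgr1* to *Asgr2* in FPKM was 0.738, 0.833, 0.757 and 1.04 in flox/flox livers and 1.30, 1.14 and 1.05 in hep-/- livers. Every hep-/- value was the higher, by the margin between 1.046 and 1.042 at its closest. The mean log2 ratio rose from -0.26 ± 0.23 (SD, n = 4) to 0.21 ± 0.15 (SD, n = 3), a difference of 0.47 with p = 0.0571 in a two-sided exact permutation test and 0.214 after adjustment over the 5 ratios tested, which does not pass. Leaving out 1 library in turn gave differences of 0.39 to 0.58. The ratio's level rests on the gene lengths behind FPKM, about 5.02 kb for *Asgr1* and 1.45 kb for *Asgr2*, but its difference between groups does not.

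**Figure D3:**
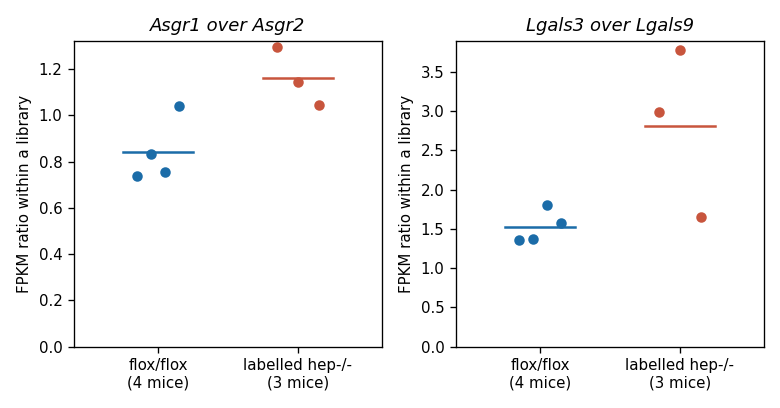
Ratio of FPKM values within each library for *Asgr1* over *Asgr2* (left) and *Lgals3* over *Lgals9* (right), with 1 point per mouse and a line at the group mean. The *Asgr1* ratio is 1.046 or more in the hep-/- livers and 1.042 or less in the flox/flox livers, and the *Lgals3* ratio is 2.99 and 3.78 in hep-/- replicates 1 and 2 but 1.66 in replicate 3, within the flox/flox range of 1.36 to 1.81.

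Of the receptors of macrophages and dendritic cells, *Clec4f* and *Clec10a* did not pass the test and *Mgl2* was not tested. *Clec4f*, a lectin that in mouse marks resident Kupffer cells, was at 60.1, 47.6, 103 and 88.0 CPM in flox/flox livers and 63.0, 40.5 and 57.8 CPM in hep-/- livers. Its groups overlapped, with a log2 fold change of -0.47 ± 0.27 (SE, 95% interval -1.07 to 0.12) and an adjusted p of 0.251 in edgeR. It was -0.28 without flox/flox replicate 3 and -0.31 without hep-/- replicate 2. Of the 6 other Kupffer cell markers 3 fell (*Vsig4* by 1.25, *Marco* by 1.24 and *Folr2* by 1.21 on the log2 scale) and 0 rose, with a median of -1.15 beside the 0.02 of all tested genes, of which 7.83% were called lower. Their summed level was 145 to 339 CPM in flox/flox and 57.7 to 142 CPM in hep-/- livers. *Vsig4* lost its call without flox/flox replicate 2, 3 or 4 or hep-/- replicate 2 or 3 (adjusted p = 0.0550 to 0.0869 in edgeR), *Marco* without flox/flox replicate 2 or 3 or hep-/- replicate 2 or 3 (0.0657 to 0.110), and *Folr2* without flox/flox replicate 3 or 4 or hep-/- replicate 2 or 3 (0.0572 to 0.0869). *Clec4f* relative to these markers differed by 0.32 in log2 CPM (two-sided exact permutation test, p = 0.343), by 0.79 with the median of the markers in place of the mean, by 0.17 without flox/flox replicate 3, by 0.11 without hep-/- replicate 2 and by 0.58 without hep-/- replicate 1. In bulk liver, fewer cells of a type and less RNA per cell cannot be told apart, and that holds for each result below.

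*Clec10a* and *Mgl2* are the paired mouse genes of the macrophage galactose-type lectin, which binds terminal galactose and N-acetylgalactosamine. *Clec10a* was at 1.06, 1.13, 1.80 and 1.67 CPM in flox/flox and 2.05, 3.23 and 1.58 CPM in hep-/- livers, or 45 to 107 counts a library. Hep-/- replicates 1 and 2 were above all controls and replicate 3 was among them. The log2 fold change was 0.69 ± 0.40 (SE, 95% interval -0.17 to 1.56), adjusted p = 0.247 in edgeR, and without hep-/- replicate 2 it was 0.36, adjusted p = 0.651. *Mgl2* had 3, 10, 8 and 4 counts in flox/flox livers and 1, 4 and 7 in hep-/- livers. At that depth, with the lowest libraries at the floor of 3 counts or under it, no difference was detectable. In GENCODE transcripts, 13.7% of the 31-base windows of *Clec10a* and 19.3% of those of *Mgl2* were shared by the pair, so reads that lie wholly within those stretches match both genes, and how many such reads there were was not tested. *Mgl2* also overlaps the pseudogene Gm12311. The log2 FPKM ratio of *Mgl2* to *Clec10a* differed by -1.18 in hep-/- livers (p = 0.286, two-sided exact permutation test), on these few counts. Without hep-/- replicate 1 that difference was -0.45, and without hep-/- replicate 3 it was -2.05. Dendritic cells express *Clec10a* too. Of 7 dendritic cell markers 1 was called higher and 0 were called lower, beside 8% and 7.83% of all tested genes. The called gene was *Clec9a*, a receptor of cross-presenting dendritic cells, by 1.39 on the log2 scale. Its mean was 6.06 CPM in flox/flox and 15.8 CPM in hep-/- livers. Of the 7 markers 2 had a log2 fold change below 0, and the median was 0.59. The summed level of the 7, *Clec9a* included, was 18.4 to 25.1 CPM in flox/flox and 35.8 to 40.9 CPM in hep-/- livers. Its part in the *Clec10a* values was not tested.

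The largest log2 fold change of the 9 tested genes was that of *Lgals3bp*, which encodes a secreted, heavily glycosylated ligand of galectins and is known as an interferon-inducible gene. *Lgals3bp* was at 129, 110, 131 and 83.4 CPM in flox/flox replicates 1 to 4 and at 34.4, 40.5 and 48.3 CPM in hep-/- replicates 1 to 3. Flox/flox replicate 4 was the lowest control and still lay above every hep-/- liver. The level fell to 36.2% of the control level, a log2 fold change of -1.47 ± 0.22 (SE, 95% interval -1.95 to -0.98), adjusted p = 0.00380 in edgeR.

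*Lgals9* encodes galectin-9, a galectin with tandem carbohydrate-binding domains that is also induced by interferons. Its values were 277, 294, 237 and 265 CPM in flox/flox livers and 131, 114 and 158 CPM in hep-/- livers. No hep-/- liver reached the flox/flox range, and the highest of them was replicate 3. The level fell to 49.99% of the control level, a log2 fold change of -1.0 ± 0.20 (SE, 95% interval -1.43 to -0.57), adjusted p = 0.00946 in edgeR. Both genes kept their calls in each of the 17 other fits, with log2 fold changes from -1.61 to -1.37 for *Lgals3bp* and from -1.14 to -0.89 for *Lgals9*. Without hep-/- replicate 3 they were -1.61 and -1.14.

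Macrophage markers were lower as well. Of 9 such markers 5 fell and 0 rose, where 7.83% of all tested genes were called lower and 8% higher. On the log2 scale all 9 were below 0, from -2.15 to -0.05, with a median of -1.15 beside 0.02 over all tested genes. Their summed level was 1390 to 3005 CPM in flox/flox against 751 to 872 CPM in hep-/- livers. The 4 largest falls were those of *Lyz2* (lysozyme) by 2.15, *Adgre1* (F4/80) by 1.88, *C1qc* by 1.18 and *C1qb* by 1.17 on the log2 scale, the last pair being chains of complement C1q. *Adgre1* fell by 1.27 without flox/flox replicate 3, and it was not called in limma on log2(FPKM + 1) without the filter (adjusted p = 0.0918). *Lyz2* alone averaged 1004 ± 409 CPM (SD, n = 4) in flox/flox and 226 ± 37.1 CPM (SD, n = 3) in hep-/- livers. No defining macrophage marker was at 0 in any group, and the part of these cells in the *Lgals3bp* and *Lgals9* values was not tested.

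**Figure D4:**
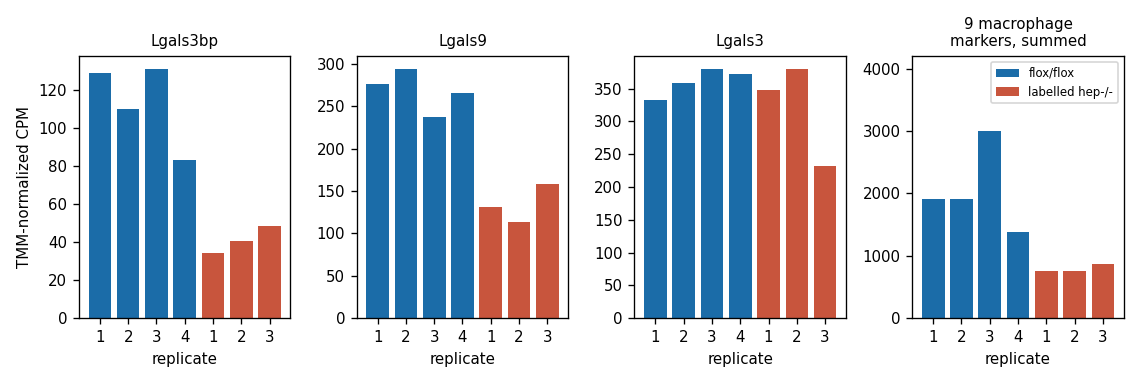
TMM-normalized CPM of *Lgals3bp*, *Lgals9* and *Lgals3* and the summed CPM of 9 macrophage markers, with 1 bar per liver, flox/flox replicates 1 to 4 in blue and hep-/- replicates 1 to 3 in red. *Lgals3bp*, *Lgals9* and the markers are lower in each hep-/- liver, and *Lgals3* is low in hep-/- replicate 3 alone, at 232 CPM.

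*Lgals3*, the galectin gene most used as a mark of activated macrophages, did not pass the test. It was at 333, 359, 380 and 372 CPM in flox/flox livers and at 347, 380 and 232 CPM in hep-/- livers. Hep-/- replicate 1 was inside the flox/flox range, replicate 2 was level with its top (380.3 against 380.2 CPM) and replicate 3 was below it. The log2 fold change of *Lgals3* was -0.17 ± 0.21 (SE, 95% interval -0.64 to 0.29), adjusted p = 0.607 in edgeR, and it was 0.0027 without hep-/- replicate 3 and -0.32 without hep-/- replicate 2. Relative to the mean log2 CPM of the macrophage markers, *Lgals3* was higher in hep-/- livers by 0.84. That difference had p = 0.0857 in a two-sided exact permutation test and 0.214 after adjustment over 5 ratios, and so did not pass. Markers of recruited and lipid-associated macrophages, the cells in which *Lgals3* is usually reported, had 4 of 8 called lower and 0 higher. Of all tested genes, 7.83% were called lower and 8% higher. Only 6 of the 8 were below 0, with log2 fold changes from -1.72 to 0.05 and a median of -0.82. Their summed level was 895 to 1991 CPM in flox/flox and 631 to 1187 CPM in hep-/- livers. The 4 called were *Gpnmb* by 1.72, *Fabp5* by 0.99, *Itgax* by 0.87 and *Trem2* by 0.83 on the log2 scale. *Itgax* lost its call without flox/flox replicate 1, 2 or 3 or hep-/- replicate 1 or 3 (adjusted p = 0.0523 to 0.0857 in edgeR), and *Trem2* without flox/flox replicate 2 or 3 or hep-/- replicate 1 or 3 (0.0588 to 0.0750).

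*Lgals1* and *Lgals8* did not pass either. *Lgals1*, which encodes the galectin-1 of fibroblasts and other stromal cells, was at 73.3, 86.6, 87.1 and 80.4 CPM in flox/flox and 68.3, 57.0 and 76.2 CPM in hep-/- livers. Only hep-/- replicate 3 reached into the flox/flox range, and the log2 fold change was -0.29 ± 0.18 (SE, 95% interval -0.68 to 0.11), adjusted p = 0.292 in edgeR, or -0.18 without hep-/- replicate 2. *Lgals1* overlaps the non-coding gene Gm30368, whose strand was not given in the source used, and how reads in the shared stretch were counted is not known. Stellate cell and fibroblast markers had 0 of 8 called in either direction, with *Dcn* (decorin), the most abundant, at 499.8 ± 181 CPM (SD, n = 4) in flox/flox and 431 ± 139 CPM (SD, n = 3) in hep-/- livers. *Lgals8*, whose product binds galactose exposed on damaged endosomes and lysosomes, was at 154, 168, 128 and 196 CPM in flox/flox and 135, 125 and 128 CPM in hep-/- livers. Flox/flox replicate 3 lay among the hep-/- values, and the log2 fold change was -0.32 ± 0.20 (SE, 95% interval -0.75 to 0.11), adjusted p = 0.283 in edgeR, or -0.21 without flox/flox replicate 4. The intervals of both genes include a fall larger than the threshold, so equal levels are not shown.

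Between genes, levels were compared per length, as CPM per kilobase of the gene length implied by FPKM. In flox/flox livers the order was *Lgals3* (257 ± 14.8, SD, n = 4), *Lgals9* (169 ± 15.0), *Asgr2* (107 ± 9.48), *Lgals1* (102 ± 8.10), *Asgr1* (90.6 ± 22.3), *Lgals8* (52.0 ± 9.20), *Lgals3bp* (49.3 ± 9.64), *Clec4f* (21.9 ± 7.38), *Clec10a* (0.942 ± 0.251) and *Mgl2* (0.0783 ± 0.0406). There the ranges of *Asgr2*, *Lgals1* and *Asgr1* overlapped, as did those of *Lgals8* and *Lgals3bp*, and all other neighbours were apart. In hep-/- livers *Lgals3* was still first, at 228 ± 55.2 CPM per kilobase (SD, n = 3). *Lgals9* (84.6 ± 14.2), *Asgr1* (84.0 ± 22.3), *Lgals1* (83.9 ± 12.1) and *Asgr2* (73.1 ± 23.3) then overlapped one another. *Lgals3bp* (17.9 ± 3.03) overlapped *Clec4f* (15.8 ± 3.45), below *Lgals8* (41.7 ± 1.69).

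RefSeq promoter windows, from 250 bases before to 50 bases after the start site, were found for 8 of the 10 genes in build GRCm38.p6, an earlier build than the GRCm39 of the counts. *Clec10a* and *Lgals1* had none. Both called members are known as interferon-inducible, so the windows were searched on both strands for the core of the interferon-stimulated response element, GAAANNGAAA, a choice made after the values and sequences were seen. It was held by *Lgals9* (2 matches, which do not overlap) and *Asgr2* (1 match) and by none of the other windows. Over all genes with a window, 3.99% held it. The 3 windows shown are those of the members whose groups did not overlap in CPM, with GAAANNGAAA, CCAAT and TATAAA in capitals on whichever strand they lie. CCAAT was held by 41.1% and TATAAA by 15.7% of all genes.
Lgals9, GRCm38.p6, chr11:78984875-78985174, minus strand: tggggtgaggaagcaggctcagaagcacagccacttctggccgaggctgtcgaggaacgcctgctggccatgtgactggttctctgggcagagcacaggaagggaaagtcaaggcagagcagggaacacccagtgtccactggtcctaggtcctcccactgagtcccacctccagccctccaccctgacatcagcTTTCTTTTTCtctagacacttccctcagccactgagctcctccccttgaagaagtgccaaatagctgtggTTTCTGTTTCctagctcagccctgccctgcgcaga
Asgr2, GRCm38.p6, chr11:70092394-70092693, plus strand: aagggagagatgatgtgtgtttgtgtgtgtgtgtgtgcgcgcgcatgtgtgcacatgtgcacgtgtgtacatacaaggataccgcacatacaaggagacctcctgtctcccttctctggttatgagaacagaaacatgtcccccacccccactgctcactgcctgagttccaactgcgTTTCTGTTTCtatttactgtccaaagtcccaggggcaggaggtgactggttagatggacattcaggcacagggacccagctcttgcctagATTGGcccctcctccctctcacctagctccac
Lgals3bp, GRCm38.p6, chr11:118401910-118402209, minus strand: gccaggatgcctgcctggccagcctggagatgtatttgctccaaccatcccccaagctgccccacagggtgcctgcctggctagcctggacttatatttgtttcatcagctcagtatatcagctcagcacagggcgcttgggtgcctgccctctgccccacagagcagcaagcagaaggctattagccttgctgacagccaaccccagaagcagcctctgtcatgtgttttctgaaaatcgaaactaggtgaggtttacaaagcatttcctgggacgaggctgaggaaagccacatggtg
In *Lgals9* the matches start 55 bases before and 15 bases after the first transcribed base, and in *Asgr2* the match starts 72 bases before it, with a CCAAT on the reverse strand after the start. The window of *Lgals3bp* held no exact match to any of the 3 motifs, and near matches were not sought. A match is a description of letters and says nothing about whether a factor binds there.

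The remaining galectin genes held the largest rise on any list examined. Of 6 listed, 5 were in the table and 2 could be tested, and 1 was called. *Lgals4*, which encodes a galectin of the intestinal epithelium, was at 56.8, 28.3, 16.8 and 54.3 CPM in flox/flox livers and 185, 255 and 131 CPM in hep-/- livers. Even the lowest hep-/- liver was far above the highest control. The log2 fold change was 2.28 ± 0.38 (SE), adjusted p = 0.00572 in edgeR, and *Lgals4* kept its call in all 17 other fits, at 2.01 to 2.62. Cholangiocyte markers, the other epithelium of the liver, had 0 of 4 called, with a median log2 fold change of 0.45. Their summed level was 37.9, 35.3, 38.6 and 13.96 CPM in flox/flox and 18.9, 73.0 and 22.8 CPM in hep-/- livers. This sum was highest in hep-/- replicate 2, as was *Lgals4*. Among the controls the sum was highest in flox/flox replicate 3, where *Lgals4* was lowest. In hep-/- replicate 1 the sum was below that of flox/flox replicates 1 to 3, while *Lgals4* was above every control. The part of the sum in the *Lgals4* values was not tested. *Epcam*, the most abundant of these markers, was at 13.8 ± 5.9 CPM (SD, n = 4) in flox/flox and 13.2 ± 11.5 CPM (SD, n = 3) in hep-/- livers.

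Genes for the ligands of these lectins and for the sugars around galactose were then examined, to be read against the 7.83% of all tested genes called lower, the 8% called higher and the median of 0.02. Of 12 plasma glycoproteins that the receptor clears, 3 rose and 0 fell, with a median log2 fold change of 0.23. *Orm3*, an orosomucoid, rose by 1.5, *Thpo*, the hormone of platelet production made by hepatocytes, by 1.10, and *Fetub*, a fetuin, by 0.79 on the log2 scale. *Thpo* was at 14.2, 10.6, 5.76 and 9.10 CPM in flox/flox and 15.5, 24.5 and 23.7 CPM in hep-/- livers, without overlap. All 3 lost their calls without hep-/- replicate 3, where the log2 fold change of *Orm3* was 0.78 (adjusted p = 0.109 in edgeR), that of *Thpo* 1.0 (0.0690) and that of *Fetub* 0.72 (0.0715). The same happened to *Orm3* without flox/flox replicate 2 (0.0757), to *Thpo* without flox/flox replicate 2 or 4 or hep-/- replicate 2 (0.0615 to 0.0747) and to *Fetub* without flox/flox replicate 1, 2 or 3 or hep-/- replicate 1 (0.0719 to 0.0901). Of 8 galectin counter-receptors 2 fell and 0 rose, with a median of -0.51. *Lamp1*, a lysosomal membrane glycoprotein dense in poly-N-acetyllactosamine, went from 712, 795, 876 and 764 CPM in flox/flox to 296, 197 and 429 CPM in hep-/- livers, a log2 fold change of -1.36 ± 0.27 (SE), adjusted p = 0.00938 in edgeR. *Egfr*, the receptor of epidermal growth factor, fell by 0.96 but kept its call without flox/flox replicate 3 alone when libraries were left out singly (adjusted p = 0.0562 to 0.10 in edgeR in the other 6).

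Sialic acid determines whether galactose is exposed, and of 9 tested genes for sialidases, the lysosomal galactosidase and sialyltransferases 2 fell and 0 rose, with a median log2 fold change of 0.04. *St6gal1*, the main α2,6-sialyltransferase of liver, was at 42.0, 83.5, 62.6 and 53.2 CPM in flox/flox and 19.8, 16.2 and 19.8 CPM in hep-/- livers. The groups were well apart, and the log2 fold change was -1.69 ± 0.24 (SE), adjusted p = 0.00327 in edgeR, called in all 17 other fits. *St3gal3*, which caps galactose in α2,3 linkage, fell by 0.74, with overlapping groups (39.4 CPM in flox/flox replicate 3 and 40.1 CPM in hep-/- replicate 3), and lost its call without flox/flox replicate 1, 2 or 4 or hep-/- replicate 1 or 2 (adjusted p = 0.0722 to 0.132 in edgeR).

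Lectins of other specificities were counted next, where 7.83% of all tested genes were called lower and their median was 0.02. Of 13 tested lectins for mannose and N-acetylglucosamine, with a median of -0.36, 2 fell and 0 rose, *Clec4n* (dectin-2) by 0.87 and *Lman2*, a cargo lectin of the secretory pathway, by 0.63 on the log2 scale, and under both RLE and upper-quartile scaling *Clec4n* was not called. *Clec4n* lost its call without 5 and *Lman2* without 6 of the 7 libraries taken singly, at adjusted p = 0.0757 to 0.127 and 0.0674 to 0.126 in edgeR, with *Clec4n* called without flox/flox replicate 1 or hep-/- replicate 1 and *Lman2* without hep-/- replicate 3. Of 7 sialic acid-binding lectins, with a median of -0.85, 1 fell and 0 rose, *Siglec1* (sialoadhesin of macrophages), by 1.65, a call lost without hep-/- replicate 1 or 2 (adjusted p = 0.0604 and 0.0648 in edgeR). Of the remaining cell type lists, sinusoidal endothelium had 1 of 5 called lower, *Kdr*, by 1.33, which was called only without flox/flox replicate 1 or 2 when libraries were left out singly (adjusted p = 0.0747 to 0.104 in edgeR in the other 5). Without flox/flox replicate 3 the log2 fold change of *Kdr* was -0.87, and that liver had the highest summed level of these markers, 204 CPM against 49.9 to 77.2 CPM in the other controls and 76.6 to 95.5 CPM in hep-/- livers. In the group means, *Cd8a*, the most abundant lymphocyte marker, was at 6.91 CPM in flox/flox and 12.5 CPM in hep-/- livers, and *S100a9*, a neutrophil marker, was at 8.50 and 8.44 CPM. Lymphocyte markers had 0 of 9 and neutrophil markers 0 of 2 called.

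**Figure D5:**
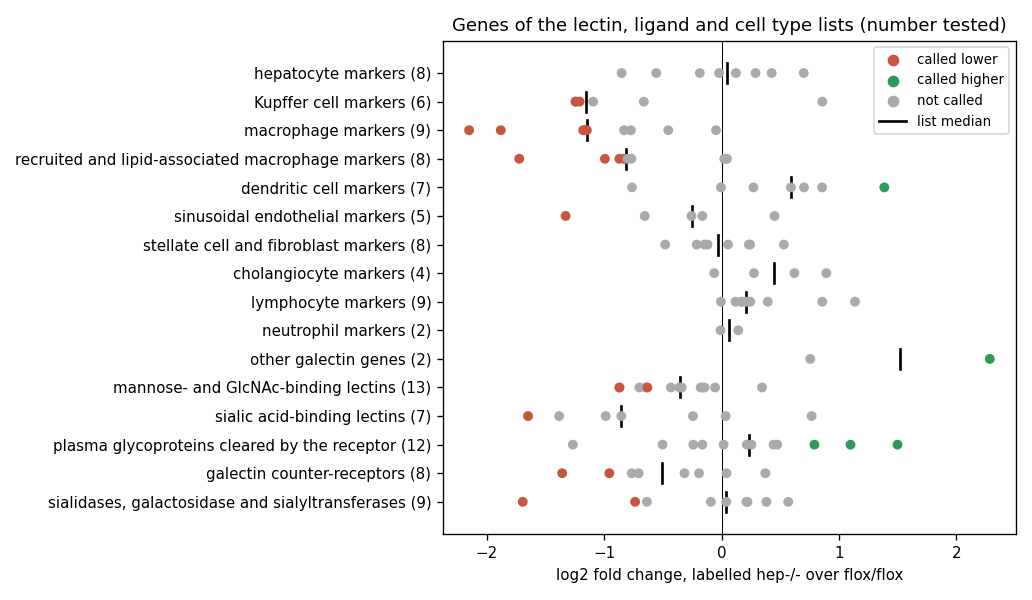
Log2 fold change, hep-/- over flox/flox, of each tested gene on the lectin, ligand, sugar-modifying and cell type lists, with 1 point per gene, red for called lower, green for called higher and grey for not called, and a bar at the list median. The macrophage and Kupffer cell lists have medians of -1.15 each, and *Lgals4* at 2.28 is the point farthest to the right.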

How the data were processed

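RNA was extracted from liver with TRIzol, and libraries were made with the VAHTS Universal V6 kit, whose strand setting is not given in the sources used here. The submitters' processing notes name fastp, HISAT2, HTSeq, DESeq2, R 3.2.0 and genome GRCm39, with no annotation. The authors deposited counts, whole numbers per gene that were not normalized, and FPKM values, which the authors scaled by gene length and library total. The tables hold no coordinates, and the RefSeq windows of GRCm38.p6 were used for sequence only.

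Counts of 23347 genes were filtered with filterByExpr (minimum count 10, minimum total 15), scaled by TMM, and compared by the quasi-likelihood F-test of edgeR 4.0.16 (R 4.3.3) with genotype alone in the model and Benjamini-Hochberg adjustment over 15179 genes. Standard errors came from the F statistic. Calls needed an adjusted p below 0.05 and a log2 fold change beyond 0.58 either way. Single values were compared by two-sided exact permutation over 35 arrangements of the mice, with a smallest p of 0.0286. Log2 CPM used a prior count of 0.5. On simulated data for hep-/- against flox/flox, edgeR recovered 191 of 200 changed genes among 15017, with 10 false calls.

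Other fits used DESeq2 1.42.0, scaling by RLE or the upper quartile, other count filters, log2 FPKM in limma 3.58.1 with 1 or 0.1 added, which understates the change of low genes, the replicate number as a block, no mitochondrial genes, and each library left out. The members and lists were chosen with earlier results of these data known. The text names all members, *B4galt1* and, of each list, at most 4 called genes or else the most abundant gene. The labels do not say that equal replicate numbers pair mice.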

Additional observations from a re-analysis of the deposited data

Results flagged for a closer look

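*Asgr1* in flox/flox replicate 4 stood apart from the other controls, at 622 CPM against 382 to 409 CPM, in Dixon's test at its critical value for 4 samples. It was the single such library among 15 sets of 4 flox/flox values examined, and chance marks about 1 set in 20. The groups of 3 hep-/- livers were not examined in this way.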

How the results depend on the processing

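*Lgals3bp* and *Lgals9* were called lower and no member was called higher in any of the 17 other fits, while *Asgr2* was called in 4, namely without hep-/- replicate 3 and in limma on log2(FPKM + 1) with and without the filter and on log2(FPKM + 0.1). *Asgr1* changed sign with the replicate number as a block (0.0421) and over the fits that left out a library (-0.29 to 0.0882), and *Lgals3* over the latter as well (-0.32 to 0.0027). *Asgr1* relative to the hepatocyte markers was 0.26 with their median in place of their mean. Genes called lower numbered 1946 in limma on log2(FPKM + 0.1) and 474 to 1175 without 1 library, from 1189, and genes called higher numbered 561 on log2(FPKM + 1), 601 on log2(FPKM + 0.1), 242 on log2(FPKM + 1) without the filter and 411 to 1291 without 1 library, from 1215. Of the fits without 1 library, that without flox/flox replicate 2 gave the fewest in both directions. With the replicate block, 615 were called lower and 652 higher. No pairing by number was visible, as deviations of same-numbered libraries correlated at -0.31, -0.02 and 0.07 and 0 of 3 hep-/- libraries were closest to their own number. Such correlations cannot exclude a pairing. *Lgals9* was nearest to losing its call with the block, at adjusted p = 0.0490 in edgeR. Of the 25 called list genes, 11 kept their call whichever library was left out, and 0 changed sign. At *Mgl2*'s counts no change could be seen. The cause of these shifts was not tested.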
